A study of Mus musculus with 4 samples.

Results

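The genes described here are those of the TGF-beta and BMP pathways, measured in inflamed facial skin of mice that lack periostin. They were chosen by symbol: BMP, GDF, TGF-beta and inhibin ligands, their receptors, SMAD proteins, latent TGF-beta binding proteins, follistatins, noggin and gremlin. The rule matched 58 symbols in the GENCODE M21 annotation, and 44 of these were among the 17038 genes kept from the deposited table; the other 14 (Bmp5, Bmp8b, Fstl5, Gdf1, Gdf2, Gdf3, Gdf5, Gdf6, Gdf7, Gdf9, Gdf11, Gdf15, Inhbc and Inhbe) were not analysed here. The rule works on names, so it also took Bmp2k, an intracellular kinase, and Fstl1 and Fstl4, which are named for their likeness to follistatin. These 3 are given apart from the pathway roles. They stay in the counts, sums and shares given for the pathway genes as a whole.

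TGF-beta family ligands are secreted dimers that bring a type II and a type I receptor kinase together on the cell surface. The type I receptor then phosphorylates SMAD proteins, which enter the nucleus with the common partner SMAD4; TGF-beta and activin use SMAD2 and SMAD3, and BMPs use SMAD1, SMAD5 and SMAD9. TGF-beta is stored in the matrix in a latent form held by latent TGF-beta binding proteins, and activins and BMPs are held in check by secreted antagonists. In skin, TGF-beta restrains keratinocyte growth and drives matrix production by fibroblasts, while BMP signals take part in the hair cycle and in hair shaft differentiation.

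The study measured capped 5' ends of RNA by CAGE (cap analysis of gene expression) in 4 libraries of lesional skin. All were of 1 group: C57BL/6 mice of the FADS model, a mouse model of facial dermatitis, at postnatal day 28, with the genotype label Nectin-cre(+);Ikk2FL/FL;Postn-/-. Every library therefore carries the Cre transgene, the floxed Ikk2 alleles and the periostin deletion, and no library without them was analysed here. The labels do not say in which cells the Cre is active, nor how many animals gave the 4 skins, so a spread between libraries may be technical. The libraries are numbered 1 to 4 in the order of their codes (Ix17.1L, Ix17.1R, Ix17.2L and Ix17.2R), whose meaning the labels do not give.

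The libraries held 16492915 to 17691558 tags in distinct clusters. With a cluster counted once for each gene that lists it, the totals were 17630119 to 18823630 tags, and CPM refers to these. In CPM (the authors' unit, tags scaled to a common library total), 1 tag was worth 0.0531 to 0.0567. The detection limit used, 3 tags, was worth 0.159 to 0.170 CPM. A tag marks 1 RNA start whatever the length of the transcript, so levels of different genes can be set side by side. Postn held 15, 6, 10 and 7 tags, 0.525 ± 0.226 CPM (SD, n = 4), and Ikbkb, which encodes Ikk2, 36.2 ± 2.06 CPM; a tag at the 5' end does not show whether a deletion further along the gene took place. Markers of keratinocytes, fibroblasts and hair follicles were all present. Summed levels of a list of 6 hair shaft and inner root sheath genes were 9768, 9072, 4040 and 5240 CPM in libraries 1 to 4, and those of 6 fibroblast genes 3630, 3224, 6120 and 5426 CPM. Library 2 also held 40722 CPM and library 4 8715 CPM of 6 gland secretory genes, against 9.19 CPM in library 1 and 0.227 CPM in library 3.

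All 44 genes were detected in every library. The sum of their levels was 1716, 1600, 1746 and 1746 CPM in libraries 1 to 4, 1702 ± 69.3 CPM (SD, n = 4). The median gene had 19.6 CPM, against 23.0 CPM over the 14733 genes of at least 1 CPM; 43 of the 44 passed that filter, 29 had at least 10 CPM and 4 at least 100 CPM. Those 4 were Bmpr1a, Bmpr2, Ltbp4 and Smad1. The genes held 213 clusters of starts, and in all 44 the cluster with the most tags was no more than 500 bp from a start annotated for that gene, as were 99.1% of their tags. These distances were not measured for the other genes, so nothing particular to the pathways is read from them.

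**Figure D1:**
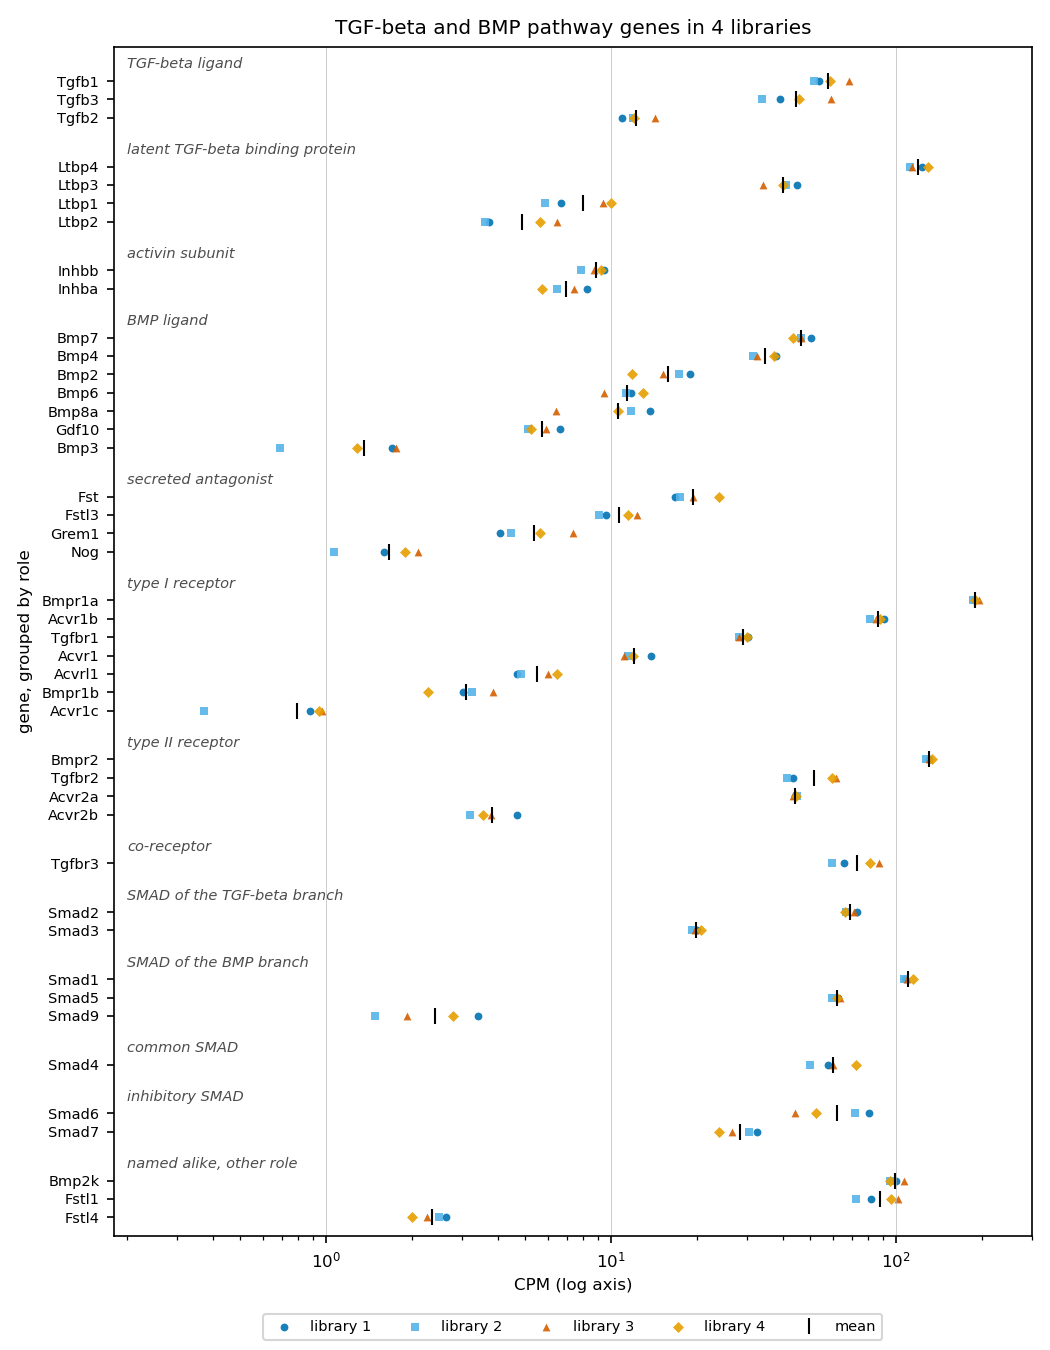
Levels in CPM (log axis) of the genes, grouped by role, with 1 symbol per library and a vertical bar at the mean. Bmpr1a, Bmpr2, Ltbp4 and Smad1 sit furthest right, with Bmpr1a at 186 to 195 CPM, and the secreted antagonists plotted sit between 1.06 and 24.0 CPM.

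Among the TGF-beta ligands, Tgfb1 had the most tags, close to Tgfb3, and Tgfb2 the fewest. Tgfb1 had 53.5, 51.4, 68.2 and 58.7 CPM in libraries 1 to 4 (57.9 ± 7.48, SD, n = 4). Tgfb3 had 39.2, 33.8, 59.1 and 45.8 CPM, and its values in libraries 3 and 4 were above those in libraries 1 and 2. In CPM without further scaling this order held for 45.6% of all genes of at least 1 CPM, and the opposite order for 11.5%. Such orders in the paragraphs on each role are given in this unit. Tgfb2 had 10.9, 11.9, 14.2 and 12.04 CPM. The order of the 3 ligands was the same in each library with all clusters summed; with leading clusters alone Tgfb3 exceeded Tgfb1 in library 3, and the log2 ratio of Tgfb1 to Tgfb3 was 0.13 against 0.40. Within a library the Tgfb1 to Tgfb2 ratio was 4.90, 4.31, 4.78 and 4.87, and that of Tgfb1 to Tgfb3 was 1.36, 1.52, 1.154 and 1.28. Tgfb1 took 50.8% ± 2.03 of the tags of the 3 ligands, Tgfb3 38.4% ± 2.91 and Tgfb2 10.8% ± 0.994.

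The start of Tgfb1 is shown because it gave the most tags among the ligands. Its window (RefSeq, GRCm38.p6, chr7:25686752-25687051, plus strand) runs from 250 bases before to 50 bases after the RefSeq start. Capitals in this and the following sequences mark bases inside the deposited tag cluster, which held 82.9% of the Tgfb1 tags.
Tgfb1: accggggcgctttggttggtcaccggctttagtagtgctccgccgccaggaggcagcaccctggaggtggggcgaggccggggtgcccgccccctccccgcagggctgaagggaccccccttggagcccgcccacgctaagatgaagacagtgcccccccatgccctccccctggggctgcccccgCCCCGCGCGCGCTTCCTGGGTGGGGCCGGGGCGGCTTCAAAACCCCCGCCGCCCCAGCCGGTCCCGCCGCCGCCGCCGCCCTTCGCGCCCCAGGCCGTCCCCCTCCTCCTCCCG

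Latent TGF-beta binding proteins tether latent TGF-beta to the matrix. Ltbp4 dominated this group, with 122.9, 112, 114 and 129.8 CPM and 69.3% ± 0.545 of the tags of the 4 genes. Ltbp3 followed with 45.1, 41.2, 34.1 and 40.1 CPM, and was lower in libraries 3 and 4 than in libraries 1 and 2. Ltbp1 had 6.66, 5.84, 9.36 and 9.98 CPM and Ltbp2, which does not hold latent TGF-beta, 3.74, 3.61, 6.47 and 5.63 CPM. For both of these, libraries 3 and 4 lay above libraries 1 and 2 without overlap, as for 45.6% of all genes in CPM. The Ltbp4 to Ltbp2 ratio was 32.6, 30.8, 17.6 and 22.9.

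Activins are dimers of inhibin beta subunits. Inhba had 8.25, 6.48, 7.43 and 5.74 CPM, and Inhbb had 9.46, 7.86, 8.74 and 9.25 CPM. The Inhba to Inhbb ratio was below 1 in all 4 libraries, at 0.872, 0.825, 0.851 and 0.622. Counting the leading cluster alone, the direction turned, to a log2 ratio of 0.04 against -0.35 with all clusters, so no order between the subunits is given.

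Of the 7 BMP ligands, Bmp7 and Bmp4 led and took 37.0% ± 1.93 and 27.6% ± 2.13 of the tags. Bmp7 had 50.2, 46.2, 46.6 and 43.4 CPM. Bmp4, a dermal signal in hair follicle biology, had 37.8, 31.4, 32.4 and 37.3 CPM. Bmp7 exceeded Bmp4 in each library by 1.16 to 1.47 times, but with leading clusters alone the log2 ratio was 0.02 against 0.43 and library 4 turned, so their order depends on the starts counted. Bmp2 had 18.9, 17.3, 15.2 and 11.9 CPM, with libraries 3 and 4 below libraries 1 and 2. Bmp6 had 11.7, 11.3, 9.42 and 12.99 CPM. Bmp8a had 13.7, 11.8, 6.41 and 10.5 CPM, lowest in library 3. Bmp2 exceeded Bmp6 in libraries 1, 2 and 3 but not in library 4, where the ratio was 0.914. Gdf10, a relative of Bmp3, had 6.60, 5.10, 5.90 and 5.24 CPM, and Bmp3 had 1.71, 0.691, 1.76 and 1.28 CPM, the lowest ligand of the group in every library.

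The secreted antagonists were low, between 1.06 and 24.0 CPM for those named here. Fst (follistatin, which binds activin) led with 16.7, 17.5, 19.5 and 24.0 CPM. Fstl3, also an activin binding protein, had 9.57, 9.08, 12.4 and 11.5 CPM. Both were higher in libraries 3 and 4 than in libraries 1 and 2 in CPM, which for Fst did not hold after scaling. The BMP antagonist Grem1 had 4.07, 4.46, 7.37 and 5.63 CPM. Nog (noggin), another BMP antagonist, had 1.60, 1.06, 2.10 and 1.90 CPM. Grem1 had more tags than Nog in each library, with a Nog to Grem1 ratio of 0.396, 0.243, 0.287 and 0.340. Fst exceeded Inhba in each library, by 2.02, 2.69, 2.61 and 4.16 times; with leading clusters alone the log2 ratio was 0.51 against 1.47, and library 1 turned.

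The type I receptors were led by Bmpr1a, a BMP receptor that the hair follicle needs to make a shaft. It had 188, 186, 195 and 189 CPM, the highest level of all 44 genes and 58.1% ± 1.19 of the type I receptor tags. Its highest library was 1.05 times its lowest. The related Bmpr1b had 3.03, 3.24, 3.86 and 2.29 CPM, and the ratio of Bmpr1a to Bmpr1b was 61.5, 57.0, 50.2 and 81.8. Acvr1b, an activin receptor, had 90.7, 80.9, 85.1 and 88.0 CPM. Its close relative Acvr1c had 0.880, 0.372, 0.964 and 0.948 CPM and was the only one of the 44 genes with a mean under 1 CPM. Acvr1b exceeded Acvr1c by 99.9, 203, 85.8 and 90.3 times.

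Tgfbr1, the TGF-beta type I receptor, had 30.2, 28.1, 28.1 and 30.1 CPM. Acvr1, another BMP receptor, had 13.8, 11.4, 11.1 and 11.9 CPM. Acvrl1, a receptor best known from endothelium, had 4.68, 4.83, 6.01 and 6.47 CPM. Acvr1 exceeded Acvrl1 in every library, with libraries 3 and 4 at a ratio of 1.85 and 1.84 and libraries 1 and 2 at 2.94 and 2.36. Summed levels of 6 endothelial genes were 75.4, 71.6, 103 and 102 CPM in libraries 1 to 4, also higher in libraries 3 and 4; their part in the Acvrl1 values was not tested. In skin as a whole, fewer cells of a type and less RNA per cell cannot be told apart.

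The Bmpr1a window is shown as that of the most abundant gene (RefSeq, GRCm38.p6, chr14:34502497-34502796, minus strand). Its main cluster held 96.5% of the gene's tags, and 205 of the 300 bases lie in it.
Bmpr1a: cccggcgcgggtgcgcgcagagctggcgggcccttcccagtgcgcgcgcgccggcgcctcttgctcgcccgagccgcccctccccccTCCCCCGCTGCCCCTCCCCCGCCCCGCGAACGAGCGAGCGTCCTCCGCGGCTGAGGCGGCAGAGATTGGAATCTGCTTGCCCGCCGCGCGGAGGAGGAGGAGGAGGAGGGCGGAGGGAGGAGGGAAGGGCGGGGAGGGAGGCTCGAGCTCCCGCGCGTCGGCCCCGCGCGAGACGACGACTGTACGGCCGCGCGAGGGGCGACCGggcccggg

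Among the type II receptors, Bmpr2 had 131, 128, 130.1 and 134 CPM, 56.8% ± 2.20 of the group. Acvr2a, a type II receptor shared by activins and BMPs, had 44.3, 44.9, 43.4 and 44.6 CPM, and its highest library was 1.03 times its lowest. Acvr2b had 4.68, 3.19, 3.80 and 3.57 CPM, so that Acvr2a exceeded it by 9.42, 13.97, 11.4 and 12.4 times. Tgfbr2 moved more than these: it had 43.5, 41.5, 61.5 and 59.5 CPM, with both libraries 3 and 4 above both libraries 1 and 2. The co-receptor Tgfbr3 (betaglycan), which presents TGF-beta to Tgfbr2, had 65.8, 59.4, 87.0 and 80.8 CPM in the same order. The ratio of Tgfbr3 to Tgfbr2 stayed at 1.51, 1.43, 1.41 and 1.36, whereas that of Tgfbr2 to Tgfbr1 was 1.44, 1.48, 2.19 and 1.98.

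Among the SMADs that carry the signal, Smad1, Smad5 and Smad3 varied little between libraries. Smad1 had 108, 107, 109.6 and 115 CPM and Smad5 had 62.5, 59.8, 63.6 and 62.2 CPM. All clusters of Smad5 are also listed under the gene entries Gm27271, Gm27301 and Gm27834, so its level is uncertain to that extent. Smad9, the third SMAD of the BMP branch, had 3.41, 1.49, 1.93 and 2.79 CPM. Smad1 took 63.0% ± 0.881 of the tags of the 3 genes, Smad5 35.6% ± 0.779 and Smad9 1.37% ± 0.481. In the TGF-beta branch, Smad2 had 72.8, 66.6, 71.0 and 66.2 CPM and Smad3 had 20.02, 19.2, 19.6 and 20.6 CPM, a ratio of 3.63, 3.47, 3.61 and 3.20. The common Smad4 had 57.8, 49.9, 60.0 and 72.5 CPM, highest in library 4. The Smad4 to Smad2 ratio was below 1 in libraries 1, 2 and 3 and 1.10 in library 4. Counting the leading cluster alone, Smad4 exceeded Smad2 at a log2 ratio of 1.30, against -0.21 with all clusters, because Smad2 spreads its tags over 3 starts of at least 10% each.

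The inhibitory SMADs turn the pathway down and are themselves induced by it. Smad6, which acts mainly on BMP signals, had 80.5, 71.9, 44.1 and 52.4 CPM. Smad7, which blocks both branches, had 32.5, 30.5, 26.7 and 23.9 CPM. Both were lower in libraries 3 and 4 than in libraries 1 and 2, without overlap, as for 11.5% of all genes in CPM. The Smad7 to Smad6 ratio was 0.403, 0.425, 0.605 and 0.457.

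Smad6 is shown because it had the largest difference between libraries of the genes of over 20 CPM (RefSeq, GRCm38.p6, chr9:64022010-64022309, minus strand). Its main cluster, chr9:64021903-64022125, held 99.4% of its tags. The run GTCTAGAC, the palindrome that SMAD3 and SMAD4 bind in vitro, lies among the capitals, within the cluster.
Smad6: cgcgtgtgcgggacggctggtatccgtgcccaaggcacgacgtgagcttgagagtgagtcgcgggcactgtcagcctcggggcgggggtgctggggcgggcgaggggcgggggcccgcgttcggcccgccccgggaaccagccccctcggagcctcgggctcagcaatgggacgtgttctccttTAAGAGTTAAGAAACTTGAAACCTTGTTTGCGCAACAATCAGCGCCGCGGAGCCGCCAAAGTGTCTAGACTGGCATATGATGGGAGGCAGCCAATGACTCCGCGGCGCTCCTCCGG

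Of the genes given apart from the pathway roles, Bmp2k had 99.9, 95.04, 106 and 95.04 CPM. Fstl1, a secreted glycoprotein of mesenchymal cells, had 81.5, 72.1, 101 and 95.9 CPM, and Fstl4 2.64, 2.50, 2.27 and 2.01 CPM. Fstl1 was not counted among the secreted antagonists. Fstl1 was higher in libraries 3 and 4 than in libraries 1 and 2.

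For 25 gene pairs, the log2 ratio within each library was set against 0 with an exact two-sided sign-flip test. With 4 libraries this test cannot give a p below 0.125, so no pair could pass 0.05. In 23 pairs all 4 libraries went the same way (exact p = 0.125, 0.136 adjusted over the 25 pairs). The exceptions were Bmp2 over Bmp6 and Smad4 over Smad2, each with 3 of 4 libraries in one direction (exact p = 0.25, adjusted 0.25). The largest ratios separated near relatives: Acvr1b over Acvr1c at a geometric mean of 112, Bmpr1a over Bmpr1b at 61.6, Smad5 over Smad9 at 26.8, Ltbp4 over Ltbp2 at 25.2 and Acvr2a over Acvr2b at 11.7.

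**Figure D2:**
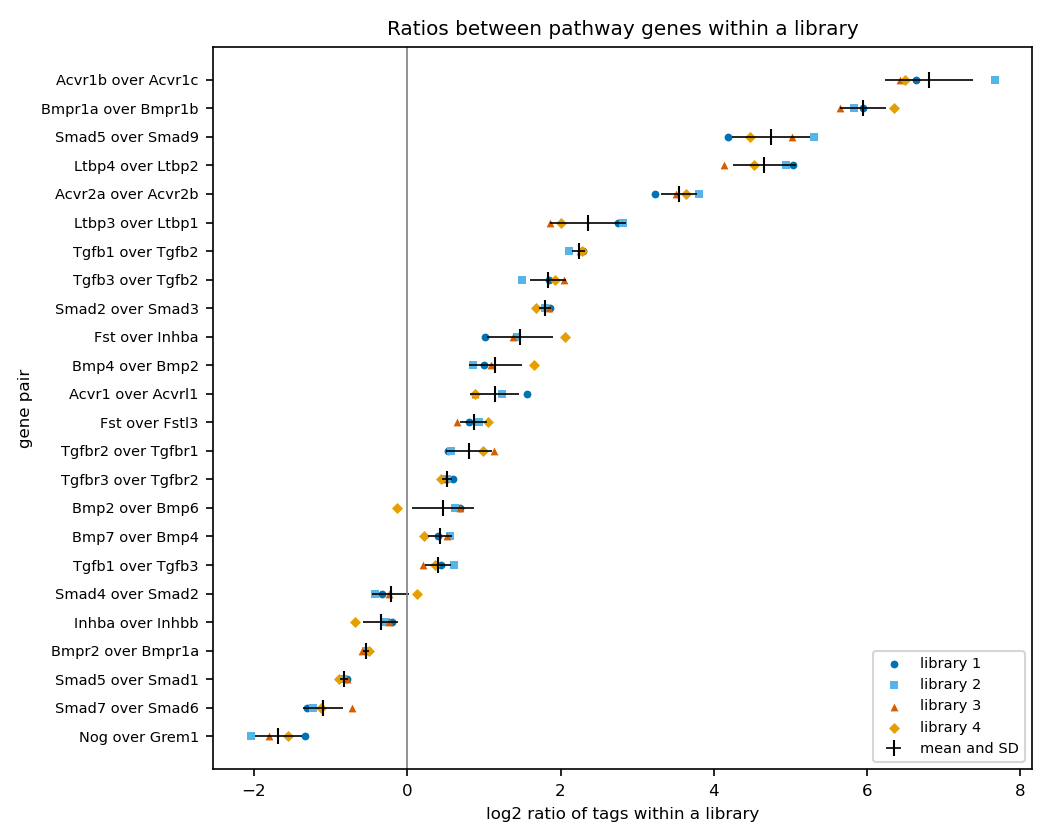
Log2 ratio of tags between 2 genes within each of the 4 libraries, for the gene pairs, with the mean and SD over libraries as a cross and bar and a line at 0. Points right of the line mean more tags for the first gene; Acvr1b over Acvr1c lies furthest right, at 85.8 to 203 times, and only Bmp2 over Bmp6 and Smad4 over Smad2 have libraries on both sides.

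The spread between libraries was tested for every gene of at least 1 CPM, on log2(CPM + 1) after TMM scaling. The test sets the variance of a gene against that of genes of its level in limma, with Benjamini-Hochberg adjustment over all 14733 genes. It called 56 genes (0.380%) and 0 of the 43 pathway genes tested. At an unadjusted p under 0.05 it gave 3 of the 43, against 923 of all genes (6.26%). These were Smad6 (adjusted p = 0.437 in limma), Bmp8a (adjusted p = 0.722) and Tgfb3 (adjusted p = 0.797). The same test in edgeR on recovered tags called 33 genes (0.224%) and 0 pathway genes, with 3 at an unadjusted p under 0.05. DESeq2 marked 512 genes (3.48%) as dispersion outliers, and Smad6 was the 1 pathway gene among them. The median SD over libraries was 0.153 on the log2 scale for the pathway genes and 0.125 for all genes tested. Smad5, Smad1, Smad3, Bmpr2 and Bmpr1a had the lowest SDs, 0.0495 to 0.0589.

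Libraries 3 and 4 share the first part of their sample code, as do libraries 1 and 2. Values were therefore also compared between these pairs of libraries, as a description chosen after the data were seen and with no test. After TMM scaling, libraries 3 and 4 were both above libraries 1 and 2 for 11 of the 43 pathway genes (25.6%), against 26.3% of all genes. They were both below for 16 of the 43 (37.2%), against 28.6% of all genes. The first share is close to that of all genes, so nothing is read from which genes are above. The log2 difference, libraries 3 and 4 minus libraries 1 and 2, had a median of -0.08 for the pathway genes and -0.01 for all genes, with an SD of 0.28 and 0.35.

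The genes above were Tgfb1, Tgfb3, Ltbp1, Ltbp2, Tgfbr2, Tgfbr3, Acvrl1, Grem1, Nog, Fstl3 and Fstl1. Ltbp2 had the largest difference, 0.49 on the log2 scale, with means of 5.80 scaled CPM in libraries 3 and 4 and 3.83 in libraries 1 and 2. Ltbp1 followed at 0.45, Grem1 at 0.40, Tgfb3 at 0.39 and Tgfbr2 at 0.38. Tgfbr2 averaged 58.0 scaled CPM in libraries 3 and 4 and 44.3 in libraries 1 and 2.

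The genes below were Smad6, Smad7, Smad2, Smad3, Smad5, Bmp2, Bmp7, Bmp8a, Ltbp3, Acvr1, Acvr1b, Acvr2a, Bmpr1a, Bmpr2, Tgfbr1 and Fstl4. Smad6 had the largest difference, -0.77, with means of 46.2 scaled CPM in libraries 3 and 4 and 79.3 in libraries 1 and 2. Bmp8a followed at -0.68, Bmp2 at -0.51, Smad7 at -0.42 and Ltbp3 at -0.33. The others lay between -0.27 and -0.08. Without scaling beyond CPM, 6 genes remained below (Smad6, Bmp8a, Bmp2, Smad7, Ltbp3 and Fstl4) and 16 were above, against 11.5% and 45.6% of all genes, so the direction of the small differences depends on the scaling.

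**Figure D3:**
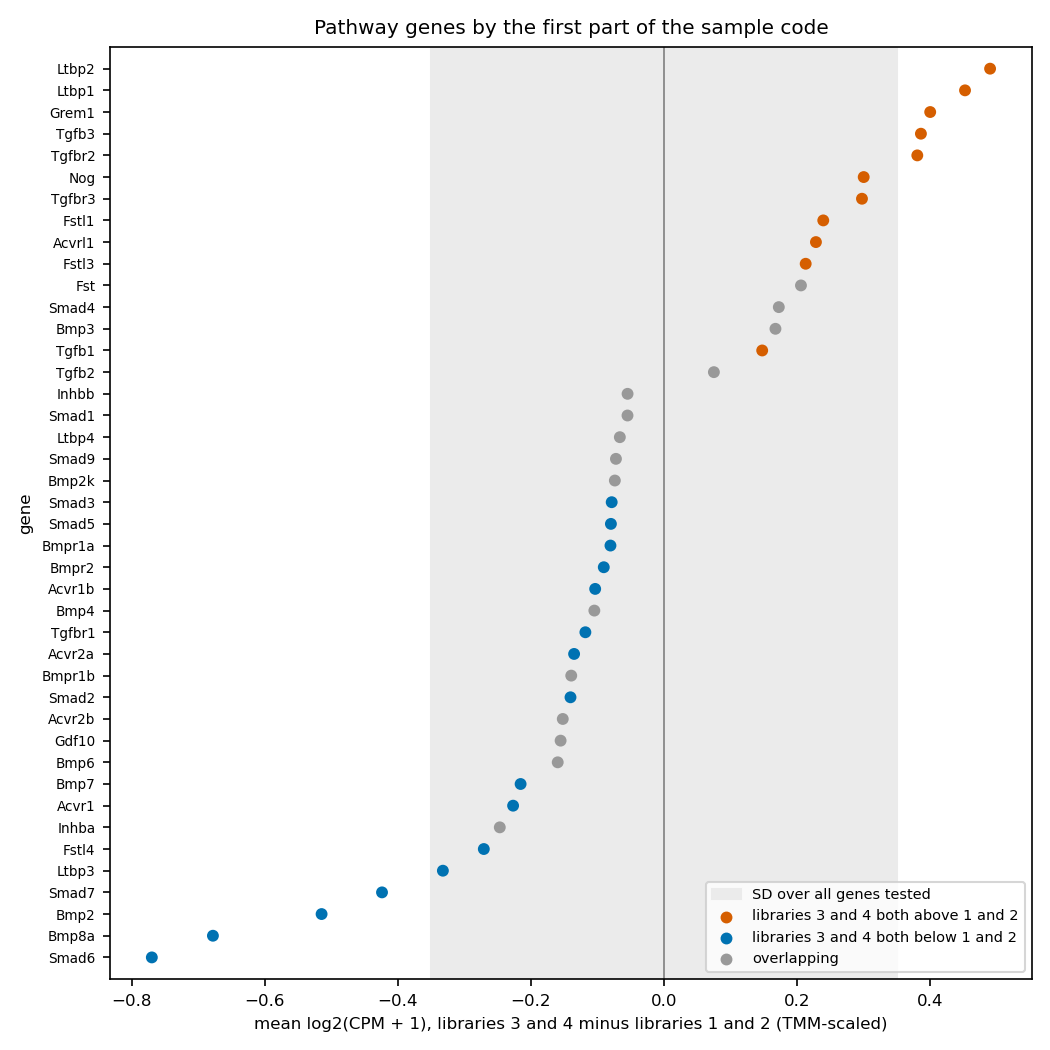
Difference in mean log2(CPM + 1) after TMM scaling, libraries 3 and 4 minus libraries 1 and 2, for the genes in order, coloured by whether libraries 3 and 4 were both above, both below or overlapping. The shaded band is 1 SD of the same difference over all 14733 genes (0.35) on each side of 0; Smad6 at -0.77 lies furthest left and Ltbp2 at 0.49 furthest right.

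Library 1 held the highest scaled value for 18 of the 43 pathway genes (41.9%), against 25.3% of all genes. Library 2 did so for 7 (16.3% against 24.6%), library 3 for 12 (27.9% against 27.1%) and library 4 for 6 (14% against 23.0%). The receptors Acvr1b and Tgfbr1 and the ligands Bmp2, Bmp7, Bmp8a and Gdf10 were among those highest in library 1.

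Other genes of the pathways were taken from 6 lists outside the rule, chosen with earlier results of these data known. Bambi stands in both the co-receptor and the BMP response list. Skil and Pmepa1 stand in both the SMAD regulator and the TGF-beta response list, so the counts of these lists are not separate. The limma spread test called 0 genes in each of them, against 0.380% of all genes; at an unadjusted p under 0.05 they were 1 of 18 genes that trap or release latent ligand, 1 of 6 co-receptors, 2 of 10 further antagonists, 0 of 19 SMAD regulators, 3 of 18 TGF-beta response genes and 4 of 15 BMP response genes, against 6.26% of all genes. Of 18 genes that trap or release latent ligand, libraries 3 and 4 were both above libraries 1 and 2 for 8 and both below for 0, against 26.3% and 28.6% of all genes. Mmp14, a membrane protease, had 101, 96.6, 115 and 111 CPM, and Thbs1, an activator of latent TGF-beta, 103, 98.5, 109 and 94.1 CPM. Of 10 tested secreted antagonists outside the rule, 7 were above and 1 below, against the same shares of all genes (26.3% and 28.6%). Dcn (decorin, a matrix proteoglycan that binds TGF-beta) had 183, 177, 291 and 257 CPM and Twsg1, a BMP binding protein, 83.8, 77.1, 110.1 and 104 CPM.

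Of 6 co-receptors and pseudoreceptors, 3 were above and 2 below, where all genes gave 26.3% and 28.6%. Rgma, a BMP co-receptor, had 69.4, 64.1, 87.2 and 87.6 CPM. Bambi, a receptor without a kinase that dampens the pathway, had 184, 172, 105 and 127 CPM, lower in libraries 3 and 4. Of 19 regulators of SMADs, such as the antiproliferative factor Tob1, 3 were above and 8 below, against 26.3% and 28.6% of all genes. Tob1 itself had 333, 345, 323 and 297 CPM.

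Genes known to respond to each branch were counted in the same way. Of 18 tested TGF-beta response genes, libraries 3 and 4 were both above for 7 and both below for 3, against 26.3% and 28.6% of all genes. Col1a1 had 1678, 1537, 2624 and 2567 CPM in libraries 1 to 4, and Cdkn1a, a cell cycle inhibitor, 219, 192, 171 and 167 CPM. Of 15 BMP response genes, 1 was above and 7 below, against the same 26.3% and 28.6%. Dlx3, a homeobox factor of hair and epidermis, had 553, 508, 318 and 423 CPM, whereas Id3, a direct BMP target, had 211, 191, 195 and 218 CPM with no such order. Msx2 and Lef1, chosen after their values were seen, had 137, 124, 74.2 and 95.8 CPM and 142, 123.1, 70.2 and 94.4 CPM. Id4, Msx1 and Id1 of the same list, given beside them, had no such order. Id4 had 72.1, 57.9, 54.3 and 77.8 CPM, Msx1 59.9, 47.3, 44.2 and 64.4 CPM, and Id1 36.9, 31.5, 49.2 and 36.0 CPM. The difference between the lists was not tested.

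Markers of several cell types also differed between libraries 3 and 4 and libraries 1 and 2. All 6 hair genes were lower in libraries 3 and 4 than in libraries 1 and 2, and 2 of them were called by the spread test. Their sum there was 4040 and 5240 CPM, against 9768 and 9072 CPM, the direction of Smad6, Bmp2, Smad7 and Dlx3. All 6 fibroblast genes were higher in libraries 3 and 4, with sums of 6120 and 5426 CPM against 3630 and 3224 CPM. Tgfb3, Tgfbr2, Ltbp1, Ltbp2 and Grem1, picked as the pathway genes with the largest rise, had the same direction. Pathway genes above were 25.6%, against 26.3% of all genes, so nothing is read from this match. Col1a1, Col1a2 and Col3a1 of the fibroblast list also stand in the TGF-beta response list, and Dcn in the antagonist list. Acta2 and Tagln stand in both the smooth muscle and the TGF-beta response list. These counts are therefore not separate from those above. All 6 endothelial genes and 5 of 6 smooth muscle genes were higher there too. So were all 6 skeletal muscle genes, with sums of 3485 and 5373 CPM in libraries 3 and 4 and 2890 and 2138 CPM in libraries 1 and 2, and 4 of 6 suprabasal keratinocyte genes, with sums of 8823 and 8694 CPM against 6632 and 5665 CPM. The median log2 difference was 0.68 for the skeletal muscle list, 0.57 for the fibroblast list and 0.38 for the suprabasal list. No gene of these 6 lists had a mean of 0. The gland list was high in libraries 2 and 4 instead. Of 6 basal keratinocyte genes, libraries 3 and 4 were both above for 3 and both below for 0. These counts were 3 and 1 of 6 adipocyte genes, 2 and 3 of 6 melanocyte and Schwann genes, and 1 and 0 of 6 macrophage genes. They were 1 and 1 of 5 mast cell genes and 2 and 0 of 3 T cell genes, against 26.3% and 28.6% of all genes. The part of these markers in the pathway values was not tested, and the share of a cell type and its RNA per cell cannot be told apart.

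**Figure D4:**
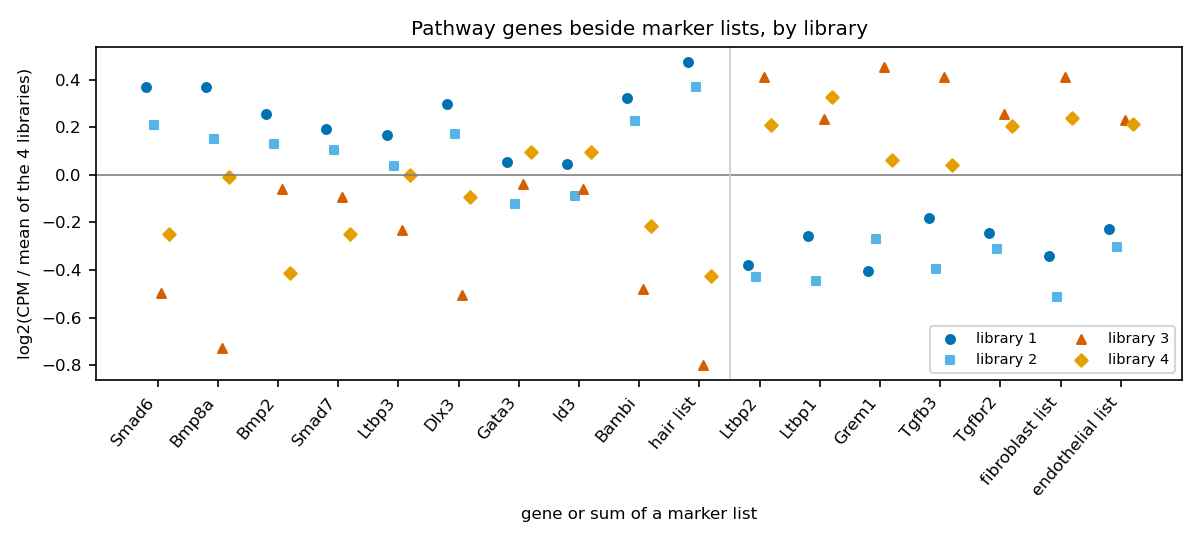
Level in each library as log2 of CPM over the mean of the 4 libraries, for the 5 pathway genes with the largest fall and the 5 with the largest rise in libraries 3 and 4, 4 BMP response genes and the sums of 3 marker lists. Left of the divider, Smad6, Dlx3, Bambi and the hair list are low in libraries 3 and 4, while Gata3 and Id3 are not. Right of it, Ltbp2, Tgfb3 and the fibroblast list are high there. The pathway genes were picked by this difference, so their direction follows from the choice.

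Many of the pathway genes used more than 1 start. At least 2 clusters with 10% or more of the gene's tags each were found for 17 of 43 genes (39.5%), against 20.4% of all genes tested. For 13 of the 17 the starts lay within 1000 bp, and for Smad3 they were nearly equal, with 45.5% and 44.5% of its tags. Starts more than 1000 bp apart were found for Ltbp1, Smad2, Fstl3 and Bmp4. The share of all genes with starts that far apart was not counted, so the distances are a description only. At a limit of 20% of the tags each, 9 of 43 genes (20.9%) had at least 2 starts, against 12.3% of all genes.

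Ltbp1 is known to be made as a long and a short protein from separate starts, and its outermost starts here lay 173280 bp apart. The upstream starts had 4.90, 3.83, 7.54 and 7.86 CPM in libraries 1 to 4, and the downstream starts 1.76, 2.02, 1.82 and 2.12 CPM. The upstream mean of libraries 3 and 4 was 1.77 times that of libraries 1 and 2, and the downstream mean 1.04 times. The downstream share was 26.4% (Wilson 95% interval 19.4 to 34.9), 34.5% (26.3 to 43.8), 19.4% (14.1 to 26.1) and 21.2% (15.9 to 27.8), so only the intervals of libraries 2 and 3 did not overlap. Both windows are shown to compare the starts (RefSeq, GRCm38.p6, plus strand): the upstream one at chr17:75005279-75005578, with 17 CpG sites and 58.7% G and C, and the downstream one at chr17:75178531-75178830, with 7 CpG sites and 50% G and C.
Ltbp1 upstream: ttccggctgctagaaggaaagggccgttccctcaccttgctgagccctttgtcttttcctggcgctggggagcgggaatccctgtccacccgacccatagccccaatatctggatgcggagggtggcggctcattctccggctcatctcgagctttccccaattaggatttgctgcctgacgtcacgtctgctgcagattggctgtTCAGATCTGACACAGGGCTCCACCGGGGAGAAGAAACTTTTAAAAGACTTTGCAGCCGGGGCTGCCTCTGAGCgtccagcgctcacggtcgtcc
Ltbp1 downstream: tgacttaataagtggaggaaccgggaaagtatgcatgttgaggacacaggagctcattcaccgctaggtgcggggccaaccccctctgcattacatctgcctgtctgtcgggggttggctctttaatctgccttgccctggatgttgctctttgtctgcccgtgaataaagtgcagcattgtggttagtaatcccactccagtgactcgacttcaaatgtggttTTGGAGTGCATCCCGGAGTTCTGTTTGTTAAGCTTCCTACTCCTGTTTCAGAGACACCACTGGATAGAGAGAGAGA

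Smad7 had a further start inside the gene, in a coding exon 779 bp from the nearest annotated start; it was singled out after its values were seen. It held 50, 54, 17 and 8 tags in libraries 1 to 4. Its share of the Smad7 tags was 8.47% (Wilson 95% interval 6.49 to 11.0), 9.39% (7.27 to 12.1), 3.62% (2.27 to 5.72) and 1.86% (0.948 to 3.64). The intervals of libraries 3 and 4 did not overlap those of libraries 1 and 2. The upstream starts had 29.7, 27.7, 25.7 and 23.5 CPM, a mean in libraries 3 and 4 of 0.857 times that in libraries 1 and 2, against 0.251 times for the internal start. Intervals cover counting error only.

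The other distant starts kept their shares more closely. The downstream starts of Fstl3, 3796 bp away at most, took 32.2%, 38.6%, 32.1% and 35.9% of its tags. The downstream start of Bmp4, in an exon of its untranslated region, took 10.6%, 10.3%, 11.2% and 9.25%. That of Smad2, which spans an annotated start 20813 bp downstream, took 12.4%, 9.82%, 9.59% and 8.59%. Its intervals in library 1 (10.7 to 14.3) and library 4 (7.13 to 10.3) did not overlap.

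**Figure D5:**
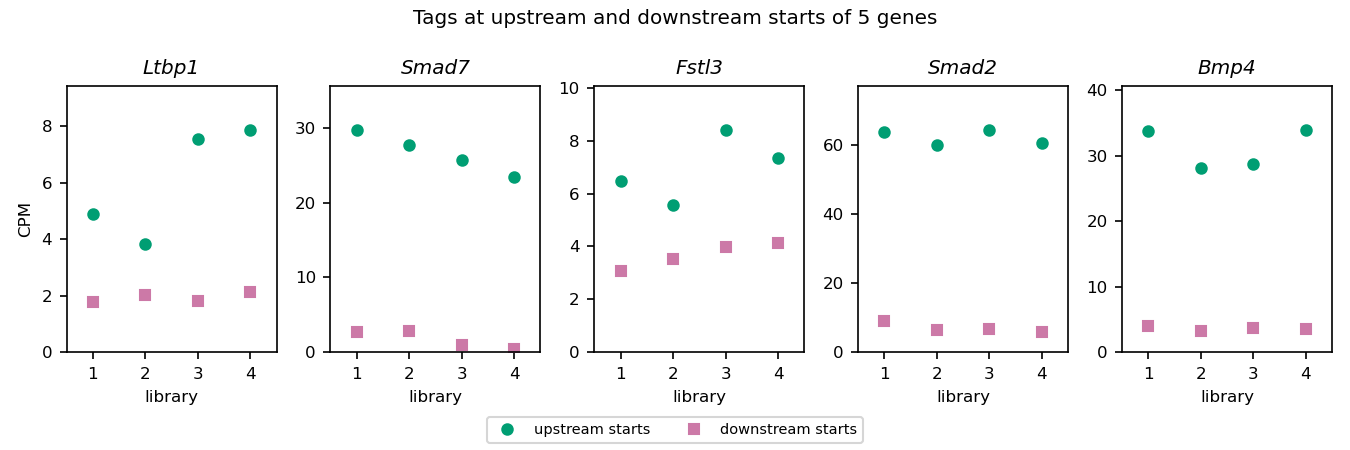
CPM of the upstream and downstream starts of 5 genes in each of the 4 libraries, on linear axes from 0 that differ between panels. The upstream starts of Ltbp1 are at 7.54 and 7.86 CPM in libraries 3 and 4 and at 4.90 and 3.83 CPM in libraries 1 and 2, while its downstream starts stay at 1.76 to 2.12 CPM.

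Starts of the pathway genes were mostly broad. The main cluster had a median width of 139 bp, against 124 bp for all genes tested. Fst was the 1 pathway gene with a main cluster of at most 20 bp, 12 bp wide, against 4.72% of all genes with so narrow a cluster. Promoter windows in RefSeq matched 32 of the 44 genes, and for 25 of these the most used cluster overlapped a window. The median G and C content of these 25 windows was 70.7% with 30 CpG sites, against 52.7% and 7 over all 32851 windows. The 25 were kept because they hold a gene's most used cluster, but the 32851 were taken whether used here or not. The contrast therefore mixes use of a start with membership of the pathways.

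Short motifs were counted on both strands in the windows of these 25 genes, and the shares of all windows have the same limit. TATAAA, the core of a TATA box, was in 2 (8%), those of Tgfb2 and Fstl3, against 13.6% of all windows. In Fstl3 it lay only on the strand opposite to the gene, whose own strand reads TTTATA there. Whether that run acts as a TATA box was not tested. GGCGCC, a GC-rich run that SMADs of the BMP branch can bind, was in 9 (36%), against 11.9%. CAGACA, which holds the SMAD box CAGAC, was in 3 (12%), against 21.0%. GTCTAGAC was in that of Smad6 (4%), against 0.213%. GGCGCC is made of G and C alone and the windows of these genes are richer in them than all windows; its count was not adjusted for that. A match is a description of letters, not a binding site.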

How the data were processed

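CAGE libraries were made from total RNA of 4 skins of 1 group. The authors deposited CPM, the tags of a cluster of RNA starts scaled to a common library total, in 1 table. The submitters' processing notes name BWA, HISAT2 and the mm9 build, but the deposited coordinates fit GRCm38, on which positions are given, with the start uncertain by 1 bp. The sources used here do not name the cluster caller. All deposited CPM values (100% within 0.02 tags) were whole multiples of 1 tag, so tags were recovered. Library totals were 18179860, 18823630, 17630119 and 17939565 tags, with a cluster counted once for each gene that lists it. Distinct clusters held 17026618, 17691558, 16492915 and 16787072 tags. Tags were summed per gene, a gene keeping clusters it shares with others unless at least 90% of its tags belonged to another gene.

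The spread between libraries was tested on log2(CPM + 1) with TMM scaling (factors 0.988, 0.931, 1.040 and 1.045) in limma 3.58.1 (R 4.3.3), for genes of at least 1 CPM on average: the gene's variance against a robust trended prior (3.49 degrees of freedom), by an F test (one-sided, for excess variance), adjusted by Benjamini-Hochberg over all genes at 0.05. The test was also run on simulated data in which only 1 library was raised. That setting is unlike a difference between pairs of libraries, and its outcome is not used here. edgeR 4.0.16 and DESeq2 1.42.0 on recovered tags were alternatives. Pair ratios had 0.5 tags added and an exact sign-flip test over 16 sign patterns. With no word on animals, p-values describe these 4 samples, whose spread may be technical. Promoter windows were RefSeq's, and annotated starts GENCODE M21's.

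The genes and lists were chosen with earlier results of these data known. Genes outside the rule were named from these lists, at most 4 per list by highest mean CPM, plus Postn and Ikbkb; exceptions are marked. Some values of 1 gene within the counts are not reported here.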

Additional observations from a re-analysis of the deposited data

Results flagged for a closer look

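Of 69 levels and ratios over the 4 libraries, 3 had 1 library far from the others: the gap to its nearest neighbour, as a share of the whole range, was above Dixon's 95% critical value for 4 samples. Chance gives such a gap in about 1 of 20 groups. Acvr1c, the activin type I receptor with the lowest level, had 0.880, 0.372, 0.964 and 0.948 CPM in libraries 1 to 4, and the gap between library 2, the lowest, and the next was 0.858 of the range. The ratio of Bmp2 over Bmp6 was 1.61, 1.54, 1.61 and 0.914, a gap of 0.915, with library 4 low. The ratio of Inhba over Inhbb was 0.872, 0.825, 0.851 and 0.622, a gap of 0.835, also with library 4 low.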

How the results depend on the processing

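No paired analysis was possible because all libraries belong to 1 group. The number of genes called by the spread test, 56, was 34 with a pseudocount of 5, 16 at a mean of at least 5 CPM, 104 without scaling, 34 with DESeq2 size factors, 33 in edgeR, 10 without robust estimation, 33 without shared clusters, 512 as DESeq2 dispersion outliers, and 10 to 111 with 1 library left out (111 without library 3, 10 without library 4). Pathway genes called stayed at 0 in these except for Smad6, the 1 DESeq2 outlier. Without scaling, pathway genes highest in library 2 numbered 1 in place of 7 (6.48% of all genes, in place of 24.6%), those highest in library 4 10 in place of 6 (35.4% of all genes, in place of 23.0%), those with libraries 3 and 4 both below libraries 1 and 2 6 in place of 16, and 16 in place of 11 were above, when 45.6% of all genes were above and 11.5% below. With 20% of tags as the limit, 9 genes had a second start in place of 17 (12.3% of all genes, in place of 20.4%). With the most used cluster alone, the log2 ratio was 0.04 for Inhba over Inhbb and 1.30 for Smad4 over Smad2, both reversed; the mean of the other 221 of 223 alternatives for pair ratios kept its sign, which says nothing of a threshold, since the test could not pass one. With the same setting, 1 library turned for Bmp7 over Bmp4 (0.02), Tgfb1 over Tgfb3 (0.13) and Fst over Inhba (0.51). Of 264 alternatives for levels, 19 moved by more than 1 SD, all with the most used cluster alone.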
